A study of Homo sapiens with 6 samples.

Results

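Class II histone deacetylases (HDACs) and their MEF2 partners were compared between LP-1/Cfz cells and parental LP-1 cells. LP-1 cells come from a human myeloma. LP-1/Cfz is the resistant derivative that was selected stepwise in carfilzomib, a proteasome inhibitor, up to 12 nM, and its RNA was taken after 1 week without the drug. The parental cells had never been selected, and both were grown in RPMI medium with 4% fetal bovine serum per the labels (the study's methods give a higher serum content). LP-1/Cfz is 1 resistant line derived from 1 parent, so that what belongs to the resistance and what belongs to this derivative cannot be told apart. Each of 3 LP-1/Cfz and 3 LP-1 RNA samples was hybridised to 1 Affymetrix Human Genome U133 Plus 2.0 array.

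The members are HDAC4, HDAC5, HDAC7 and HDAC9 (class IIa), HDAC6 and HDAC10 (class IIb), and the transcription factors MEF2A, MEF2C and MEF2D. They were found as the probe sets annotated with a single gene symbol that is one of these 9 names. This gave 27 of the 54613 probe sets on the arrays, 12 for class IIa, 5 for class IIb and 10 for MEF2. Several probe sets read the same gene and are not replicates of one another.

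Class IIa HDACs shuttle between cytoplasm and nucleus. In the nucleus they bind MEF2 factors and corepressors and hold MEF2 target genes down, and phosphorylation by calcium-dependent and related kinases makes them bind proteins of the YWHA family, which hold phosphorylated partners, and leave the nucleus. Class IIb enzymes differ: HDAC6 works in the cytoplasm, where it deacetylates tubulin and links ubiquitinated proteins to the dynein motor that carries them to the aggresome, a route of protein disposal beside the proteasome, and HDAC10 deacetylates polyamines. In B-lineage cells MEF2C is the best known MEF2 factor.

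The promoter sequences below are shown for HDAC9 and HDAC4, the genes with a probe set that passed the test, and for MEF2A, the other member whose promoter held a MEF2 box core. They were read from RefSeq (GRCh38.p14) as windows of 300 bases, from 250 before to 50 after an annotated start, and run 5′ to 3′ on the gene's own strand. The table held 26 windows for 8 of the 9 members, because a gene can have several annotated starts. Capitals mark matches to 3 motifs searched on both strands: the MEF2 box core CTANNNNTAG, the AP-1-like core TGANTCA that NF-E2 and Nrf2 motifs contain, and the antioxidant response element core TGACNNNGC. The last motif can overlap the AP-1-like core.
HDAC9, outermost start, chr7:18086575-18086874, + strand: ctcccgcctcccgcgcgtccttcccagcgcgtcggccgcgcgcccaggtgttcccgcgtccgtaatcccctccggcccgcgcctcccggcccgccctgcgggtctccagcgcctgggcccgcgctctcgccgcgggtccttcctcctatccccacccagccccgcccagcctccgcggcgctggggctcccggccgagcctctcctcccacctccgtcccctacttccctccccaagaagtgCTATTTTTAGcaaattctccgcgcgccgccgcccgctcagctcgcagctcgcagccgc
HDAC9, internal start, chr7:18495499-18495798, + strand: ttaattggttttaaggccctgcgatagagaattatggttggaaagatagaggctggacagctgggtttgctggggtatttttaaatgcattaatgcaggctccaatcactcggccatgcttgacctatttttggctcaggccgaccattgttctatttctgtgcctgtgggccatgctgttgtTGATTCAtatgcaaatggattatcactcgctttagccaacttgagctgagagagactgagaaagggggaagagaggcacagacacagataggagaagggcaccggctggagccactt
HDAC4, outermost start, chr2:239401600-239401899, - strand: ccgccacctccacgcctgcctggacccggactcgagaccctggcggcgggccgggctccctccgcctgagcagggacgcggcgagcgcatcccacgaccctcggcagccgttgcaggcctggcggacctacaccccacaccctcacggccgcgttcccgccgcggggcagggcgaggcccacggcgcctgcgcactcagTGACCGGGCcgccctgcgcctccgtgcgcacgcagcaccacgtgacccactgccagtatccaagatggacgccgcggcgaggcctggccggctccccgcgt
MEF2A, chr15:99565734-99566033, + strand: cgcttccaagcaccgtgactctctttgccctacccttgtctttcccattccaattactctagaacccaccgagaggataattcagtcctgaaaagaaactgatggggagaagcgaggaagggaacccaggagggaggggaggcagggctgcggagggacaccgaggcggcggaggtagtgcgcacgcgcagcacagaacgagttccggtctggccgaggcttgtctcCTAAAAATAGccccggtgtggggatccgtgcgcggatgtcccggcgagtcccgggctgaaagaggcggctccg

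The outermost of the 5 HDAC9 windows is rich in G and C, at 75% against a median of 58.7% over all 35116 windows. It held a MEF2 box core whose first base lies at position -8 from the annotated start. One of the 3 MEF2A windows held the same core at position -23. Over all windows 2.73% held this core. The internal HDAC9 window, which has 47.3% G and C, held an AP-1-like core at position -67, a motif found in 7.71% of all windows. A second internal HDAC9 start overlaps that window and holds the same site. In MEF2C, 1 of 7 windows held the AP-1-like core, at positions -64 and -37. The antioxidant response element core was found in 13.3% of all windows. Among the 5 HDAC4 windows, it lay at position -51 in the outermost and at -42 in an internal one. It also lay at positions -96 and -10 in 1 of the 3 HDAC6 windows, and at position 13 in a MEF2A window. A match is a match of letters and no evidence of binding.

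The deposited values are on a log2 scale and centred probe set by probe set. The sources used here do not give the baseline. A value is therefore a distance from an unnamed reference point and not a level, and only differences between arrays can be read. Differences were tested with limma, p-values were adjusted by Benjamini-Hochberg over the whole array, and "rose" and "fell" are used for an adjusted p under 0.05. No source states whether the replicates came from separate cultures, and the p-values then rest on variation that may be purely technical. LP-1/Cfz replicate 3 was the most variable array: its values had an interquartile range of 0.338, the other arrays 0.23 to 0.264. The array weights of limma, used only in an alternative setting, put it at 0.389. In the main fit every array counted equally. Over all probe sets, 11% passed the test, 4.25% higher and 6.76% lower in LP-1/Cfz. In place of levels, the plasma cell identity could only be followed through changes: of 10 plasma cell markers, MZB1 (0.39), SDC1 (0.38) and TNFRSF17 (0.27) rose and SLAMF7 (-2.17) and CD38 (-1.07) fell, genes named after their values had been seen. That is 50% of the markers, where 16.7% of all genes passed. The mean over these markers was 0.12 to 0.19 on the LP-1/Cfz arrays and 0.33 to 0.34 on the LP-1 arrays, while their median difference had the opposite sign, at 0.08. Their part in the results was not tested.

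Of the members' 27 probe sets, 25 showed no change that passed the test, 1 rose and 1 fell. That is 7.41% of them, where 11% of all probe sets passed. Both belong to class IIa genes, HDAC9 (higher) and HDAC4 (lower). Of the 12 class IIa probe sets that is 16.7%. No member reached a fold change of 1.7 between group means, a size that 1.59% of all probe sets reached. The median size of the difference, regardless of sign, was 0.0765 on the log2 scale over the members and 0.105 over all probe sets. The groups did not overlap for 7 of the 27 probe sets, or 25.9%, where 30.7% of all probe sets showed this.

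**Figure D1:**
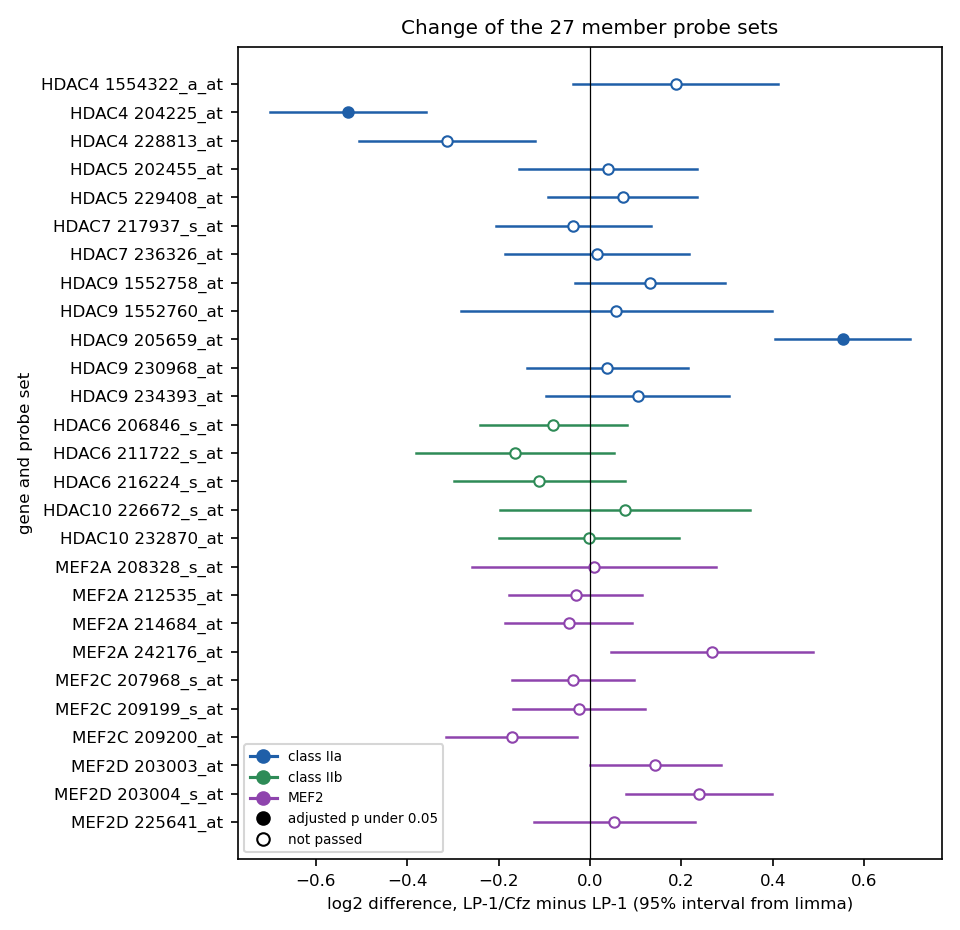
Log2 difference between LP-1/Cfz and LP-1 for each of the 27 member probe sets, with 95% intervals from limma (n = 3 arrays per group). Filled points are the 2 probe sets that passed the test, HDAC4 204225_at at -0.53 and HDAC9 205659_at at 0.55. All other points lie between -0.31 and 0.27.

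Of the 5 probe sets of HDAC9, 1 rose. HDAC9 is the class IIa gene that also gives a shorter product, known as MITR or HDRP, which binds MEF2 but lacks the catalytic domain. On probe set 205659_at the log2 values were 0.31, 0.29 and 0.23 in LP-1/Cfz and -0.23, -0.35 and -0.26 in LP-1. All 3 LP-1/Cfz arrays lay above all 3 LP-1 arrays, and the spread within each group was small beside the gap. The difference was 0.55 (standard error 0.0638, 95% interval 0.41 to 0.70, adjusted p = 0.00142 from limma), a 1.47-fold rise. It kept its call in all 6 fits that left out 1 array, at 0.52 to 0.58, LP-1/Cfz replicate 3 among them.

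The other 4 HDAC9 probe sets gave differences of 0.04 to 0.13, and none passed (lowest adjusted p = 0.313). Their groups overlapped on each of the 4. Averaged over these 4, the values in LP-1/Cfz were -0.66, -0.49 and -0.51, and in LP-1 -0.58, -0.67 and -0.66. The rise on 205659_at exceeded the mean of the others by 0.47 on the log2 scale, and on every LP-1/Cfz array the gap between 205659_at and the others (0.74 to 0.97) was wider than on any LP-1 array (0.33 to 0.40). This contrast was chosen after the call had been seen and is given without a test. Probe sets 205659_at and 1552758_at are annotated to different RefSeq transcripts of HDAC9, and which product each probe set reads was not determined.

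HDAC4, which recruits the corepressor complex that contains HDAC3, fell on 1 of its 3 probe sets. On 204225_at the log2 values were -0.81, -0.64 and -0.82 in LP-1/Cfz and -0.15, -0.24 and -0.28 in LP-1. Each LP-1/Cfz array lay below every LP-1 array. The difference was -0.53 (standard error 0.0741, 95% interval -0.70 to -0.36, adjusted p = 0.00347 from limma), a 1.44-fold lower value. All 6 fits without 1 array kept this call, at -0.59 to -0.49.

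On a second HDAC4 probe set, 228813_at, the values were -0.51, -0.24 and -0.33 in LP-1/Cfz and -0.12, 0.01 and -0.04 in LP-1. Here too the groups did not overlap. The difference of -0.31 just missed the threshold (adjusted p = 0.0508). Of the 6 fits without 1 array, it passed only in that without LP-1/Cfz replicate 2 (-0.37, adjusted p = 0.04). In the others the adjusted p reached 0.162. It also passed under 4 of 8 other settings of the fit. The third probe set, 1554322_a_at, pointed the other way, with 0.19 (95% interval -0.04 to 0.41, adjusted p = 0.29). Its values were -0.12, 0.21 and 0.20 in LP-1/Cfz against -0.03, -0.13 and -0.11 in LP-1, so that LP-1/Cfz replicate 1 lay among the LP-1 arrays. The fall on 204225_at exceeded the mean of the other 2 probe sets by -0.47, a contrast also chosen after the call and given without a test.

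Neither HDAC5, a class IIa enzyme well known from muscle and heart, nor HDAC7, the class IIa member known for its roles in lymphocytes and endothelium, passed on any probe set. HDAC5 had differences of 0.04 (95% interval -0.16 to 0.23) and 0.07 (95% interval -0.09 to 0.24). HDAC7 had -0.04 (95% interval -0.20 to 0.13) and 0.02 (95% interval -0.19 to 0.22). The groups overlapped on each of these 4 probe sets. Changes on these 4 probe sets beyond about 0.24 on the log2 scale in either direction lie outside the intervals. Smaller ones could not be told from no change with 3 arrays per group. Transcripts that these probe sets do not read are not covered.

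**Figure D2:**
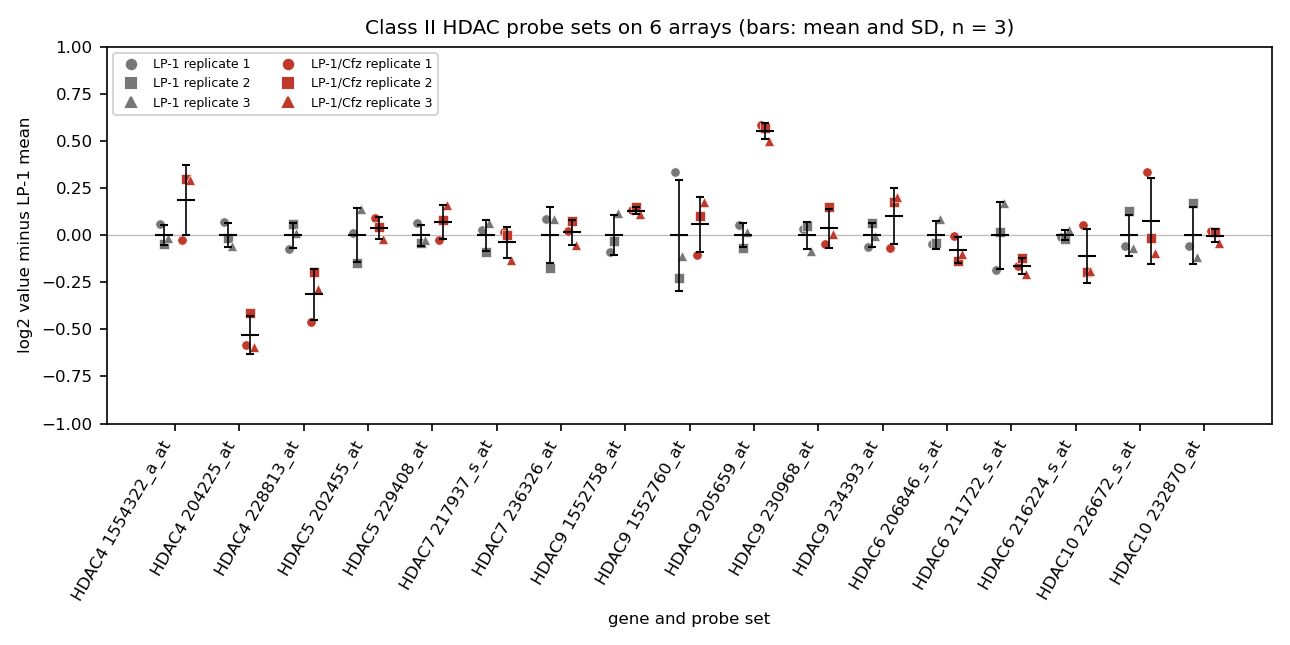
Values of the 17 class II HDAC probe sets on the 3 LP-1 (grey) and 3 LP-1/Cfz (red) arrays. The vertical axis gives log2 values relative to the mean of the LP-1 arrays. Points are arrays, and bars show mean and SD (n = 3). The groups are fully apart on HDAC4 204225_at and 228813_at and on HDAC9 205659_at, and on no other.

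HDAC6, the aggresome deacetylase, was lower in mean on all 3 of its probe sets without passing the test on any. On 211722_s_at the values were -0.01, 0.03 and -0.06 in LP-1/Cfz and -0.04, 0.17 and 0.32 in LP-1. LP-1 replicate 1 lay within the LP-1/Cfz range, and the difference was -0.16 (95% interval -0.38 to 0.05, adjusted p = 0.341). The other probe sets had -0.11 (95% interval -0.30 to 0.08) and -0.08 (95% interval -0.24 to 0.08). As a mean of the 3 probe sets HDAC6 had -0.12 (95% interval -0.27 to 0.03, adjusted p = 0.271 over 19775 genes). The upper end of 0.03 holds for this mean only, since the intervals of the single probe sets reach 0.05 and 0.08.

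HDAC10 passed on neither of its probe sets. On 226672_s_at, LP-1/Cfz replicate 1 stood at 0.39 where replicates 2 and 3 stood at 0.04 and -0.04, and LP-1 was at -0.00, 0.18 and -0.02. The groups overlapped, and the difference was 0.08 (95% interval -0.20 to 0.35). The second probe set, 232870_at, had -0.00143 (95% interval -0.20 to 0.20, adjusted p = 0.994).

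No MEF2 probe set passed the test. The groups did not overlap on 4 of the 10, or 40%, where 30.7% of all probe sets showed this. MEF2D, a broadly expressed MEF2 factor, came nearest. On 203004_s_at it had 0.25, 0.18 and 0.09 in LP-1/Cfz and -0.08, -0.11 and 0.00 in LP-1. LP-1/Cfz replicate 3 was the lowest of its group but still above all LP-1 arrays. The difference was 0.24 (95% interval 0.08 to 0.40, adjusted p = 0.0685). With LP-1/Cfz replicate 3 left out it was 0.28 and passed (adjusted p = 0.0471). That was 1 of the 6 fits without 1 array, and the others did not pass (adjusted p up to 0.197). The groups were also apart on 203003_at, at 0.03, 0.12 and 0.06 against -0.03, -0.13 and -0.05, with a difference of 0.14 (adjusted p = 0.208). The third probe set, 225641_at, had 0.05, and its groups overlapped.

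MEF2A has 4 probe sets, of which 3 had differences of -0.05 to 0.01 with overlapping groups. The fourth, 242176_at, had 0.25, 0.39 and 0.02 in LP-1/Cfz and -0.02, -0.09 and -0.03 in LP-1. LP-1/Cfz replicate 3 lay much closer to the LP-1 arrays than to the other 2. The difference was 0.27 (95% interval 0.05 to 0.49, adjusted p = 0.131). Without LP-1/Cfz replicate 3 it was 0.37 and passed (adjusted p = 0.0205). That was 1 of the 6 fits without 1 array. The difference fell as low as 0.18 in the others, none of which passed (adjusted p up to 0.30).

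MEF2C moved little. Probe sets 207968_s_at and 209199_s_at, had -0.04 and -0.02, with 95% intervals from -0.17 to 0.12 together. On the third, 209200_at, the values were 0.47, 0.40 and 0.37 in LP-1/Cfz and 0.57, 0.56 and 0.63 in LP-1. All LP-1/Cfz arrays were below all LP-1 arrays, and the difference was -0.17 (95% interval -0.31 to -0.03, adjusted p = 0.132). It passed in none of the 6 fits that left out 1 array. MEF2B was not measured alone, since its probe set also names other genes.

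**Figure D3:**
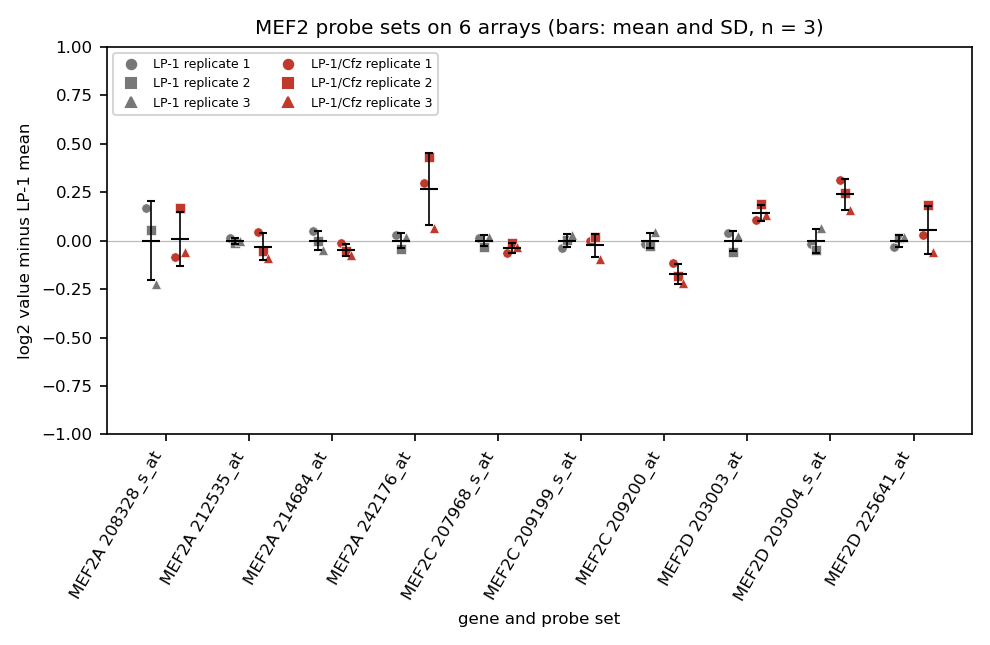
Values of the 10 MEF2 probe sets on the 3 LP-1 (grey) and 3 LP-1/Cfz (red) arrays, as log2 values relative to the mean of the LP-1 arrays. Points are arrays, and bars show mean and SD (n = 3). The groups do not overlap on MEF2A 242176_at, MEF2C 209200_at and MEF2D 203003_at and 203004_s_at, and none of the 10 passed the test. Over the whole array the groups do not overlap on 30.7% of probe sets.

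With the mean of its probe sets taken for each gene, 0 of the 9 members passed limma over 19775 genes, of which 16.7% passed. Unadjusted, 3 of the 9 had p under 0.05, where 29.8% of all genes did. These were HDAC4 at -0.22 (adjusted p = 0.0728), HDAC9 at 0.18 (adjusted p = 0.0735) and MEF2D at 0.15 (adjusted p = 0.113). Ordered from lowest to highest difference, the genes ran HDAC4, HDAC6, MEF2C, HDAC7, HDAC10, MEF2A, HDAC5, MEF2D and HDAC9. The 95% intervals of every pair of neighbours in that order overlapped. HDAC4 (-0.38 to -0.06) and HDAC9 (0.05 to 0.31) had intervals apart from each other, on a gene mean that joins probe sets which disagree.

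Among the other deacetylases, 5 of 12 genes passed, which is 41.7% against the 16.7% of all genes. This list and those below were chosen with earlier results of these data known, and their shares were not tested. HDAC8, a class I enzyme that acts on cohesin, rose by 0.40 (standard error 0.055, adjusted p = 0.00228). Its gene-level values were 0.36, 0.41 and 0.27 in LP-1/Cfz and -0.03, -0.09 and -0.03 in LP-1. HDAC11, the only class IV enzyme, rose by 0.42 (adjusted p = 0.00284), from 0.12, 0.15 and 0.12 in LP-1 to 0.59, 0.61 and 0.43. Only 1 of its 2 probe sets passed on its own, with differences of 0.13 and 0.70, where HDAC8 rose on 2 of 3. SIRT1, an NAD-dependent nuclear deacetylase, fell by 0.43 (adjusted p = 0.00749), and SIRT7, a sirtuin of the nucleolus, fell by 0.27 (adjusted p = 0.00665). These 4 calls held in every fit that left out 1 array. HDAC1 had -0.17 (adjusted p = 0.042), a call lost without any one of the 6 arrays. Its only probe set did not pass when adjusted over all probe sets. The list runs in both directions, with a median of -0.02.

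Of 13 measured corepressor partners of class IIa HDACs, 0 rose and 2 fell, or 15.4%, where 16.7% of all genes passed. TBL1XR1, a core subunit of the complex that holds NCOR and HDAC3, fell by 0.34 (standard error 0.0448, adjusted p = 0.00185) and on 5 of its 6 probe sets. SUV39H1, a histone H3 lysine methyltransferase, had -0.22 (adjusted p = 0.0287). The call was lost in 5 of the 6 fits without 1 array, the exception being the fit without LP-1/Cfz replicate 2. The only SUV39H1 probe set did not pass when adjusted over all probe sets.

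The enzymes that set the phosphorylation of class IIa HDACs held the largest change among the partners, beside PRDX1. Of 25 measured, 1 rose and 5 fell, or 24% against the 16.7% of all genes. CAMK4, a calcium and calmodulin-dependent kinase that phosphorylates class IIa HDACs, had gene-level values of 1.35 to 1.63 on the LP-1/Cfz arrays and of 2.75 to 2.98 on the LP-1 arrays. The groups lay far apart, and the difference was -1.40 (standard error 0.0905, adjusted p = 5.1e-05), with a fall on all 3 of its probe sets. PPP1R12A, the targeting subunit of the myosin phosphatase, which also dephosphorylates HDAC7, fell by 0.65 (adjusted p = 0.000264). PPP3CB, a catalytic subunit of the phosphatase calcineurin, fell by 0.48 (adjusted p = 0.000446). SIK1, a salt-inducible kinase, had 0.19 (adjusted p = 0.0366), and its call was lost in all fits without 1 array but that without LP-1/Cfz replicate 2. On its own, 1 of its 2 probe sets passed. None of 8 genes for the YWHA proteins and the export receptor XPO1 passed.

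Of 33 measured genes around HDAC6 in aggresome transport, 1 rose and 6 fell, or 21.2%, where 16.7% of all genes passed. VIM, the intermediate filament that cages the aggresome, fell by 0.47 (adjusted p = 0.00225), and the chaperones DNAJB6 and DNAJB1 fell by 0.42 (adjusted p = 0.00188) and 0.36 (adjusted p = 0.00191). These 3 held in all fits without 1 array. WDFY3, a large scaffold of aggregate clearance, had 0.30 (adjusted p = 0.0158), a call lost without LP-1 replicate 1 or LP-1 replicate 3, and 1 of its 4 probe sets passed. Among 12 HDAC6 substrates and tubulin acetylation genes, 1 was higher and 1 lower, or 16.7%, the same share as all genes. CTTN, the actin-binding cortactin, had 0.20 (adjusted p = 0.0248) and kept its call in 1 of the 6 fits without 1 array, that without LP-1/Cfz replicate 3. It passed on 2 of its 5 probe sets. The lower one was PRDX1, a peroxiredoxin that HDAC6 deacetylates, at -6.05 on its single probe set (standard error 0.104, adjusted p = 2.11e-07 from limma). Its values were -6.69, -7.13 and -6.93 in LP-1/Cfz and -0.82, -0.91 and -0.87 in LP-1.

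Of 20 measured MEF2 target and cofactor genes, 1 rose and 3 fell, or 20% against the 16.7% of all genes. KLF2, a transcription factor and MEF2 target in several cell types, had 1.13, 1.16 and 1.18 in LP-1/Cfz and 1.69, 1.71 and 1.81 in LP-1. That is a fall of 0.58 (standard error 0.0525, adjusted p = 0.00029), although only 1 of its 2 probe sets passed on its own. JUN, another MEF2 target, rose by 0.32 (adjusted p = 0.00865). KLF4 had -0.43 (adjusted p = 0.0171), which was lost without LP-1 replicate 1 or LP-1 replicate 2. The coactivator CREBBP had -0.23 (adjusted p = 0.0124), which was lost without LP-1 replicate 2 or LP-1 replicate 3. On their own, 2 of 4 JUN, 1 of 2 KLF4 and 1 of 4 CREBBP probe sets passed.

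**Figure D4:**
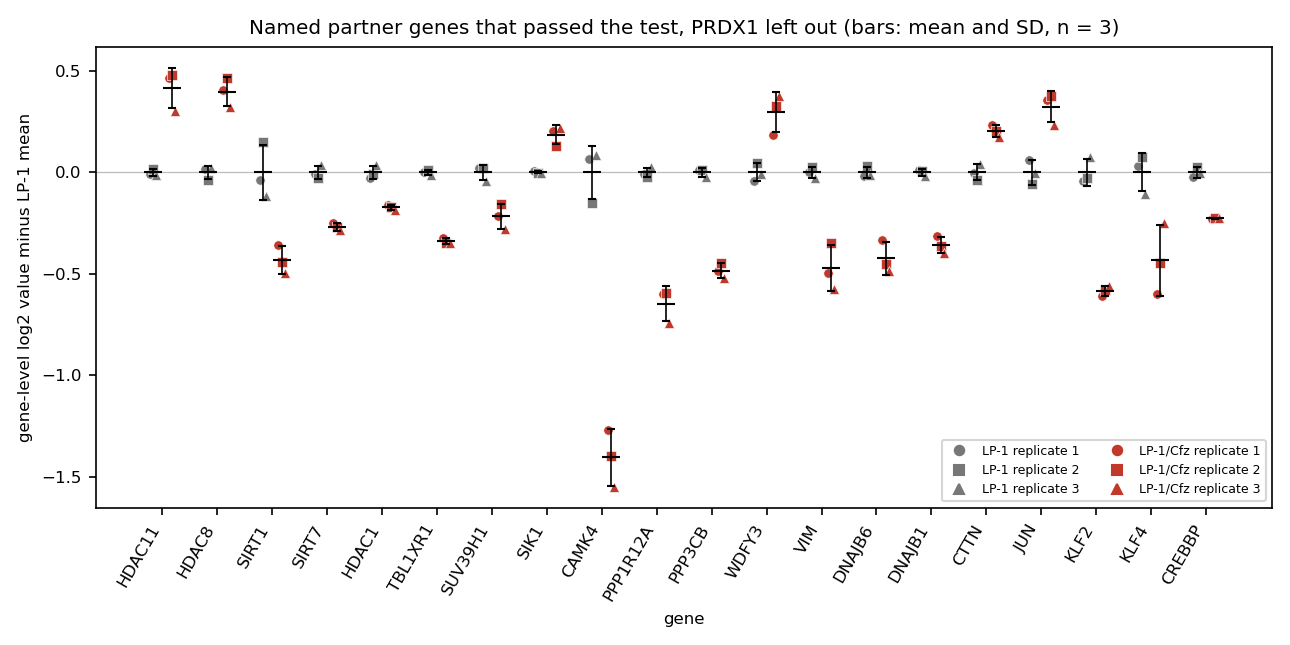
Gene-level values of the named partner genes that passed the test, with PRDX1 left out for its size, on the 3 LP-1 (grey) and 3 LP-1/Cfz (red) arrays. The vertical axis gives log2 values relative to the mean of the LP-1 arrays. Points are arrays, and bars show mean and SD (n = 3). CAMK4 has the largest change shown, at -1.40.

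Over all these partner lists, 6 of 122 measured genes rose and 20 fell, so that 21.3% passed where 16.7% of all genes did. Their median difference was -0.04, against 0.02 over all genes. Without LP-1 replicate 1 or without LP-1 replicate 3, only 3 were higher. Among markers of other cells, CD8A rose and GNLY fell of 9 T and NK cell markers, or 22.2%, above the 16.7% of all genes. Of 7 myeloid markers 0 passed, and of 10 stromal markers ACTA2 fell, or 10%. On their own, 0 of 1 CD8A, 0 of 2 GNLY and 1 of 3 ACTA2 probe sets passed. The mean of the T and NK list ranged from -0.07 to 0.10 in LP-1/Cfz and from -0.05 to -0.03 in LP-1, that of the myeloid list from -0.09 to 0.06 and from 0.01 to 0.07, and that of the stromal list from -0.01 to 0.11 and from 0.01 to 0.03. The groups overlapped in each of these means.

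The 36 nearest measured genes, 2 on each side of every member in RefSeq order, passed in 16.7% of cases, the same share as all genes. HDAC9 lies beside TWIST1, a transcription factor of mesenchymal cells, which had -1.80 (standard error 0.125, adjusted p = 7.21e-05). HDAC9 itself had 0.18 on this gene level and did not pass. On the other side of HDAC9, PRPS1L1 had 0.16 and SNX13 0.09, and neither passed. Both G6PC3 (0.36) and ASB16 (0.34), on either side of HDAC5, rose, while VDR beside HDAC7 (-0.34) and TTC23 near MEF2A (-0.38) fell. None of the 4 neighbours of HDAC4 passed, its antisense gene HDAC4-AS1 (0.11) among them. Beside HDAC6, PCSK1N had -0.29 (adjusted p = 0.0107), and GATA1, on its other side, had 0.13 (adjusted p = 0.237).

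The genes whose gene-level profile over the 6 arrays was most like that of HDAC9 were WWTR1 (Pearson r = 0.999), ASPH (r = 0.991) and TCAF2 (r = 0.989). For HDAC6 they were ASB16-AS1 (r = 0.993), ARHGAP17 (r = 0.986) and ZNF486 (r = 0.985). With 6 arrays in 2 groups and 19775 genes to choose from, values of this size describe the ranking only.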

How the data were processed

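RNA from 3 LP-1/Cfz and 3 LP-1 samples was hybridised to 1 array each by the authors, and groups and replicate numbers were taken from the labels. The deposited table holds 54613 probe sets as log2 values, made with RMA per the submitters' processing notes. Its version, and the baseline that each probe set was centred on, are not given in the sources used here. Precision is limited by the number of arrays.

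Gene names came from the array's annotation table, which gives 1 gene for 41091 probe sets, several for 1801 and none for 11721. RefSeq identifiers matched for 41037 of the former, and 0 symbols changed. Genes were then given the mean of their single-gene probe sets. Near-identical genes can share probes, and 9 of the 27 member probe sets have the suffix that marks probes shared between transcripts.

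Both groups were fitted together in limma 3.58.1 (R 4.3.3; lmFit, then eBayes) with group as the single factor, and p-values were adjusted by Benjamini-Hochberg over 54613 probe sets or 19775 genes. Every array entered, and 0 pairs of arrays were identical. The alternatives were renormalization, centring, array weights, a robust prior, 2 sets of features, a minimum fold change of 1.2, other gene values, the replicate number as a block and each array left out. The fits were tested on simulated data in which far fewer features were changed than passed in the real data. For probe sets, 0% of 1.2-fold, 48% of 1.5-fold and 88% of 2-fold changes were recovered. For genes these were 20%, 76% and 100%.

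Named genes were all members, the called genes of each list (up to 3 in each direction with the largest change), 2 neighbours on each side and the 3 genes most like HDAC9 and HDAC6. Marker lists were given as counts and list means, and their called genes were named after their values had been seen. The members and lists were chosen with earlier results of these data known.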

Additional observations from a re-analysis of the deposited data

How the results depend on the processing

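The rise of HDAC9 205659_at passed under all 8 other settings and without each array. The fall of HDAC4 204225_at passed under 7 of 8 and without each array, but not against a minimum fold change of 1.2 (adjusted p = 0.118). The count of member probe sets higher was 3 with array weights, and 1 to 3 with 1 array left out, the 3 being without LP-1/Cfz replicate 3. Lower were 2 with array weights, with each array's median set to 0, with only probe sets of 1 gene, and 0 with the minimum fold change, and 1 to 2 with 1 array left out. At the gene level 1 member was higher with quantile normalization repeated (HDAC9) and with the highest probe set per gene (HDAC9, at 0.55), and 1 lower with array weights (HDAC4). Lower member genes numbered 0 to 1 with 1 array left out. Partner genes higher were 0 with the minimum fold change and 3 to 6 with 1 array left out. Partner genes lower were 5 with the minimum fold change and 13 with the highest probe set per gene. The cause of these shifts was not tested, apart from the stricter test of the minimum fold change itself. Centred values do not tell whether the highest probe set is also the brightest one.

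The labels number the replicates alike in both groups, but same-numbered arrays deviated from their group means with correlations of -0.05, 0.13 and -0.01, so that the numbers were not taken as pairs. With the replicate number as a block, 1 member probe set was higher and 2 lower, the second being HDAC4 228813_at (adjusted p = 0.0468). It also passed with array weights (0.0332), with each array's median set to 0 (0.0443) and with only probe sets of 1 gene (0.0415). Only LP-1/Cfz replicate 2 correlated best with its own number.

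Of 789 recomputed values of single probe sets or genes, 689 kept direction and side of the threshold, 58 lost a call and 13 gained one. In the other 29 the sign changed, each time for a value that passed in neither fit. With quantile normalization repeated these were HDAC7 217937_s_at (0.0291), HDAC10 232870_at (0.00804) and the HDAC7 gene (0.0242). With medians set to 0, MEF2A 208328_s_at had -0.000672. With array weights, HDAC9 1552760_at had -0.011 and HDAC10 232870_at 0.0342. With the highest probe set per gene, the HDAC4 gene had 0.188 and the HDAC7 gene 0.0152, and with the median of probe sets the MEF2A gene had -0.00767. With 1 array left out, the ranges were -0.0538 to 0.162 and -0.0602 to 0.0849 for HDAC10 226672_s_at and 232870_at, -0.0339 to 0.112 for the HDAC10 gene, -0.071 to 0.0594 and -0.0816 to 0.0111 for HDAC7 236326_at and 217937_s_at, and -0.0763 to 0.0303 for the HDAC7 gene. They were -0.0197 to 0.0804 and -0.0558 to 0.225 for HDAC9 230968_at and 1552760_at, -0.103 to 0.0941 for MEF2A 208328_s_at, -0.0134 to 0.109 for MEF2D 225641_at, -0.0464 to 0.00991 for MEF2C 209199_s_at and -0.0353 to 0.108 for HDAC5 202455_at.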
